A study of Mus musculus with 4 samples.

Results

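This account concerns accessible regions inside very long autosomal genes of mouse pachytene spermatocytes. A region is a stretch of the mm10 genome covered by ATAC-seq peaks of 1 or more libraries, with peaks joined wherever 1 bp or more was shared; it counts as held by a library that has a peak in it. Members were the regions on chromosomes 1 to 19 whose midpoint lay inside a protein-coding gene longer than 300 kb and more than 1 kb from any gene end. There were 8601 of them among 155908 regions in all, in the bodies of 533 long genes. The 53050 regions in the bodies of autosomal protein-coding genes of 300 kb or less, chosen with the same distance from gene ends, served for comparison. ATAC-seq marks open DNA by the insertion of a transposase.

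Spermatocytes isolated from mouse testis were exposed to 2.5 µM BMH-21 for 12 h, or to the solvent DMSO (mock). BMH-21 is a DNA-intercalating compound that inhibits RNA polymerase I, which makes the precursor of ribosomal RNA, and the study asked how it alters genome accessibility. Each group had 2 libraries, called biological replicates by the submitters; strain, age and whether separate animals were used are not given in the labels. P-values here therefore compare these libraries only, and differences between libraries may be partly technical.

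Pachytene is the stage of meiosis at which homologous chromosomes are fully paired and recombination is completed, and transcription of the autosomes is high. Very long genes owe their length to introns, take hours to transcribe and encode many neural adhesion molecules, ion channels and synaptic scaffolds. Such genes often contain internal promoters, from which shorter transcripts start, besides scattered enhancers, and several of them lie at common fragile sites, which break when replication is slowed.

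Among the long-gene regions, 103 overlapped the promoter window of an annotated start that lies inside the gene. The strongest of these by the authors' fold (the height of the peak over its local background) are printed to show what an internal start looks like when it was held by all 4 libraries, by both mock libraries alone, or by both BMH-21 libraries alone. The sequences are RefSeq promoter windows of GRCm38.p6, written from 5′ to 3′ along the gene, and capitals mark CpG dinucleotides. The first set was held by all 4 libraries: Pcca (chr14:122534078-122534377, plus strand), which encodes a subunit of mitochondrial propionyl-CoA carboxylase; Nkain2 (chr10:32889866-32890165, minus strand), a membrane protein that binds the sodium pump; and Adk (chr14:21075902-21076201, plus strand), adenosine kinase.
Pcca: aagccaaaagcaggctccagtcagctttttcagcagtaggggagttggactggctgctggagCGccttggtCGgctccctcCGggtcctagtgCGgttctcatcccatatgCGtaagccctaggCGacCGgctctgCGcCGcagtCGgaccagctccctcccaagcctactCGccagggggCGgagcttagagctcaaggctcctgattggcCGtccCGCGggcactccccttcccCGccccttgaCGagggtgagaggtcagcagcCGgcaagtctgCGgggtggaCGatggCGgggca
Nkain2: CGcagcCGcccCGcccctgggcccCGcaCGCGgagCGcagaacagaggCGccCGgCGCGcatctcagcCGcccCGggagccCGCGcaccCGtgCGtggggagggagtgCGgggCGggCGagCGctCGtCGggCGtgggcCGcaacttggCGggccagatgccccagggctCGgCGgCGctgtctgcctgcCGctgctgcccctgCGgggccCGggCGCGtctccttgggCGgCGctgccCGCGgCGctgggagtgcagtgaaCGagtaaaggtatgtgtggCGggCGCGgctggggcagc
Adk: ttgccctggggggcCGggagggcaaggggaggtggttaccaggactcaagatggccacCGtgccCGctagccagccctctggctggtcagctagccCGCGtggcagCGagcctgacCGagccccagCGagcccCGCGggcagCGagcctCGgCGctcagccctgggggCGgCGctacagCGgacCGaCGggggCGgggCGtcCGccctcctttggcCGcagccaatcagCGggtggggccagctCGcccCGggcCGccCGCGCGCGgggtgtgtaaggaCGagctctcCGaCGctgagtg

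The second set was held by both mock libraries and neither BMH-21 library. It comprises the internal starts of Grik2 (chr10:49788705-49789004, minus strand), a kainate receptor subunit, Dpp6 (chr5:27048949-27049248, plus strand), an auxiliary subunit of potassium channels, and Col19a1 (chr1:24587388-24587687, minus strand), a collagen chain. The Grik2 and Col19a1 starts lie close to the gene's 5′ end, at 1.41 and 0.485 kb, and that of Dpp6 lies 232 kb in. The starts of Pcca, Nkain2 and Adk lie 50.0, 7.26 and 23.6 kb in.
Grik2: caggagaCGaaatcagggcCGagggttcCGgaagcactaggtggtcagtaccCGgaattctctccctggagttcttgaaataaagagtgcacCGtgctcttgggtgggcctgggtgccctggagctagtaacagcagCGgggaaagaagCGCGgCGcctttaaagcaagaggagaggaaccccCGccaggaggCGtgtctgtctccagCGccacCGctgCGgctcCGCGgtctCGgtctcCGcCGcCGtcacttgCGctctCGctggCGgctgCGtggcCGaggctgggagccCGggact
Dpp6: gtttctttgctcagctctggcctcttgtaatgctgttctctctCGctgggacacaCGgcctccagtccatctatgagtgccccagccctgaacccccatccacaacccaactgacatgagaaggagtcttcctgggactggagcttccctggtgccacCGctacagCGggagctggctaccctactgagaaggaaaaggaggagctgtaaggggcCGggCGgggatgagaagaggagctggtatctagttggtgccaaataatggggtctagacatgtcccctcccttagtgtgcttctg
Col19a1: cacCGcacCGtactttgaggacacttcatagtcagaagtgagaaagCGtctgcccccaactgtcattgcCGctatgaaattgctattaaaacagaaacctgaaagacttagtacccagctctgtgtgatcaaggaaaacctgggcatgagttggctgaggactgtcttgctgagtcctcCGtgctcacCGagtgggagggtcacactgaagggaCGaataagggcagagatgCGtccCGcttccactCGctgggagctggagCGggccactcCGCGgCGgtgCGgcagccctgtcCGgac

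A single internal start was held by both BMH-21 libraries and absent from mock, that of Mapk10 (chr5:103211285-103211584, minus strand), the JNK3 kinase, 1.27 kb from the gene's 5′ end. Its window contains the 8-letter cyclic AMP response element TGACGTCA, in which the central CG is the only part in capitals below.
Mapk10: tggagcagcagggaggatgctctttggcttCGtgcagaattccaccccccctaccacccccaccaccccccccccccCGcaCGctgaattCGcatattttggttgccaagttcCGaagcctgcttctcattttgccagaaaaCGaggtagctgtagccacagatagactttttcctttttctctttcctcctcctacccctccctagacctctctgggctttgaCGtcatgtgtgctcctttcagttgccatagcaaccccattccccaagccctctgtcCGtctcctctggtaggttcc

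Long genes held far fewer regions after BMH-21. The BMH-21 libraries held 1438 and 1664 of the 8601 regions, against 5479 and 6265 in the mock libraries. The means were 1551 ± 160 and 5872 ± 556 regions (SD, n = 2 each), a ratio of 0.264. No BMH-21 value reached a mock value. An exact permutation test gave p = 0.33 (two-sided), the smallest value it can give with 2 libraries against 2. The comparison bodies held 9978 and 10764 regions in BMH-21 and 36938 and 39666 in mock libraries, a ratio of 0.271. All lists were shorter after BMH-21, with 51234 and 55459 peaks against 109230 and 117905. When every list was cut to the length of the shortest, the ratio for long genes was 0.710. The genome-wide background recovered from the peak statistics, which scales with the reads used, was 4.46 and 4.11 fragments in BMH-21 and 4.54 and 4.31 in mock libraries. In bulk samples, fewer cells with an open region and less opening per cell cannot be told apart.

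Long genes were sparsely covered for their size. They carried 4.86 and 5.63 regions per Mb in the BMH-21 libraries, against 18.5 and 21.2 per Mb in the mock libraries. Shorter gene bodies carried 15.9 and 17.2 per Mb in BMH-21 and 59.0 and 63.3 per Mb in mock libraries. The share of all protein-coding body regions that lay in long genes was 12.6 and 13.4% after BMH-21 and 12.9 and 13.6% in mock, so the groups overlapped (exact permutation p = 0.67, two-sided). That small difference changed sign with several settings, and with genes above 200 kb it was -0.982 points and the groups did not overlap (exact permutation p = 0.33). Counts in long genes thus stood in about the same ratio between the groups as counts in shorter genes.

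**Figure D1:**
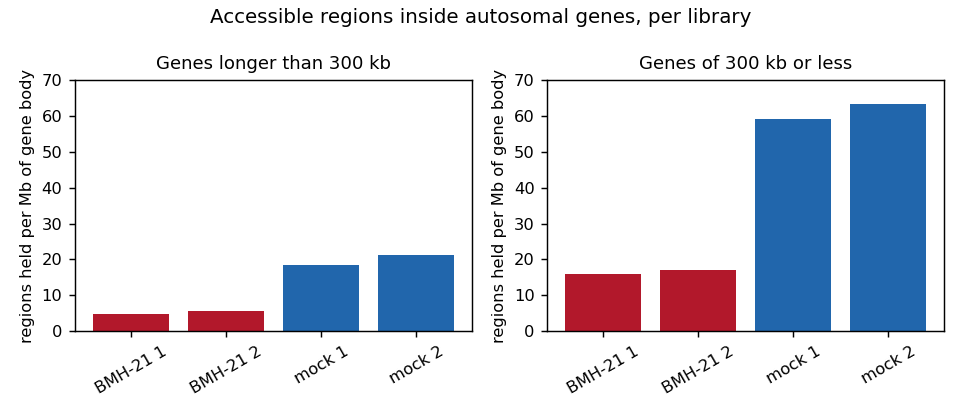
Regions per Mb (y axis, linear, from 0) held by each library in bodies of genes longer than 300 kb and in bodies of genes of 300 kb or less, 1 bar per library. Both BMH-21 bars are lower than both mock bars in each class, and long genes are lower than shorter genes in every library.

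Regions held by both mock and neither BMH-21 library are called mock-only here, and the reverse case BMH-21-only. Of the 4078 long-gene regions held by both mock libraries (double-mock regions), 3195 were mock-only, or 78.3% (exact Clopper-Pearson 95% interval 77.1 to 79.6%). Over all autosomal regions the share was 63.7%, and in the bodies of shorter genes 74.8% (74.3 to 75.3%). The excess of long over shorter genes was 3.55 percentage points, and it was 6.92 with lists of equal length, 2.04 more than 10 kb from any gene end and 1.72 without internal starts. Intergenic regions gave 77.3% and gene ends 31.5%. A further 557 long-gene regions were held by all 4 libraries and 326 by both mock and 1 BMH-21 library. All intervals given cover counting error only and treat regions as independent, which neighbours in 1 gene need not be.

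In each of the 4 pairs of 1 BMH-21 with 1 mock library, the regions of the mock library were absent from the BMH-21 library more often in long genes than in shorter ones. The absent share was 85.2 to 87.4% in long genes and 82.3 to 83.8% in shorter ones, a difference of 2.84 to 3.61 percentage points. By chromosome, the mock-only share was higher in long genes on 16 of 19 autosomes and lower on 3. The differences ran between -4.26 points on chromosome 1 and 12.4 points on chromosome 14, with a mean of 4.03 ± 4.37 points (SD, n = 19 chromosomes). Dnah7a, Dnah7b and Dnah7c are similar genes on chromosome 1, and without them that chromosome stood at 4.16 points. Long genes were then higher on 17 of 19, and the lowest value was -3.59 points on chromosome 6. This step was added later, and the share of these genes was low (33 of 75 mock-only). Leaving them out therefore had to raise the long-gene side, and no similar genes were taken out of the comparison bodies.

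The size and sign of this excess depended on how peak strength was taken into account. When comparison bodies were matched to the long-gene regions in 10 classes of the authors' fold, the mock-only share was 78.3% in long genes against 68.3% expected, a difference of 10.0 points, with long genes higher in 9 of 10 classes. More than 10 kb from any gene end the matched difference was 5.87 points. Matching on the deposited −log10 q left 3.22 points and matching on region width 1.01 points. Matching on the summit pileup, the number of fragments at the peak's highest point, turned the sign to -1.39 points, with long genes higher in 5 of 10 classes. In the weakest pileup class the shares were 89.5% in long genes and 87.0% in shorter ones, and in the strongest class 24.6% and 41.4%. In the strongest class of fold they were 51.4% and 34.6%.

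**Figure D2:**
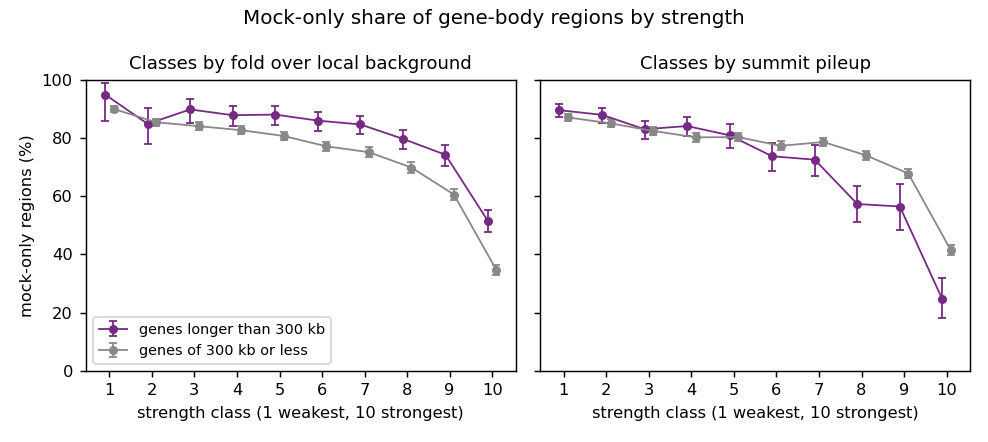
Mock-only share in percent (y axis) by class of peak strength in the mock libraries (x axis, class 1 weakest to class 10 strongest), by fold and by summit pileup, for long-gene bodies and bodies of genes of 300 kb or less, with exact 95% intervals. By fold the long genes lie above in 9 of 10 classes; by pileup they lie below from class 6 to class 10.

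Peak height and local background both differed between the gene classes. Long-gene regions had median summit pileups of 29 and 28 fragments in BMH-21 and 28 and 27 in mock libraries, while shorter genes had 35 and 34 in BMH-21 and 37 and 36 in mock libraries. Their median local background was 4.66 and 4.20 fragments in BMH-21 and 4.56 and 4.31 in mock libraries, compared with 6.88 and 6.38 in BMH-21 and 8.32 and 7.62 in mock libraries for shorter genes. The median fold in long genes was higher, at 4.78 and 4.89 in BMH-21 and 4.33 and 4.33 in mock libraries, than in shorter genes, at 4.34 and 4.49 in BMH-21 and 3.79 and 3.90 in mock libraries. In long genes 44.8 and 48.0% of regions in BMH-21 and 49.8 and 53.5% in mock libraries sat at the genome-wide background, against 17.9 to 22.7% in shorter genes. Beside those of shorter genes, long-gene regions were thus low peaks on a low floor. Intergenic regions were similar, with median pileups of 31 and 30 in BMH-21 and 28 and 27 in mock libraries. Their median backgrounds were 4.92 and 4.40 in BMH-21 and 4.74 and 4.31 in mock libraries, with 40.9 to 51.2% at the genome-wide background. Whether the floor accounts for the difference in mock-only share was not tested.

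BMH-21-only regions made up a larger share in long genes than in shorter ones. Of the 1048 long-gene regions held by both BMH-21 libraries, 378 were BMH-21-only, or 36.1% (33.2 to 39.1%), and 54.3% when the lists were cut to equal length. The share over all autosomal regions was 19.5%, that in shorter gene bodies 23.3% (22.3 to 24.3%) and that of intergenic regions 38.6% (37.2 to 39.9%). The excess over shorter genes was 12.8 points, and it kept its sign under every match of strength within the BMH-21 lists, at 13.1 points by fold, 11.3 by −log10 q, 7.97 by pileup and 7.29 by width. In the 4 library pairs, 45.1 to 51.1% of the BMH-21 library's long-gene regions were absent from the mock library, compared with 35.5 to 39.3% in shorter genes. BMH-21-only regions in long genes had a median width of 348 bp and median folds of 5.13 and 5.67, and those held by all 4 libraries 760 bp and folds of 5.79 and 6.16 in BMH-21 and 6.21 and 6.40 in mock libraries.

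Replicate lists shared long-gene regions to a similar degree in both groups. The 2 BMH-21 libraries had 0.510 of their combined long-gene regions in common and the 2 mock libraries 0.532, whereas a BMH-21 and a mock library had 0.114 to 0.128 in common. In shorter genes the figures were 0.510, 0.597 and 0.149 to 0.159. Of the 8601 members, 3909 were held by a single library.

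Both shares were higher in longer genes. Across 8 bins of gene length, from 10 kb or less to above 800 kb, the BMH-21-only share was 14.7, 19.03, 23.5, 26.6, 32.6, 35.0, 32.3 and 42.5%. The mock-only share was 67.7, 73.8, 75.2, 75.8, 77.9, 77.3, 80.9 and 78.9%. The step at 300 kb was small beside the gradient, since the neighbouring bins of 200 to 300 kb and 300 to 500 kb had overlapping intervals in both measures, at 29.0 to 36.5% and 31.3 to 38.9% for BMH-21-only and 76.3 to 79.4% and 75.6 to 78.9% for mock-only. Just over the threshold lay Zfp423, Kcnq3, Jazf1, Nxph1 and Cacna1a (300.2 to 301.6 kb), with 35 of 49 regions mock-only and shares of 50.0 to 100% per gene. Just under it lay Akap13, Atp2b2, AW554918, Kcnmb2 and Slc44a5 (298.3 to 299.1 kb), with 35 of 47 mock-only and shares of 46.7 to 100%.

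**Figure D3:**
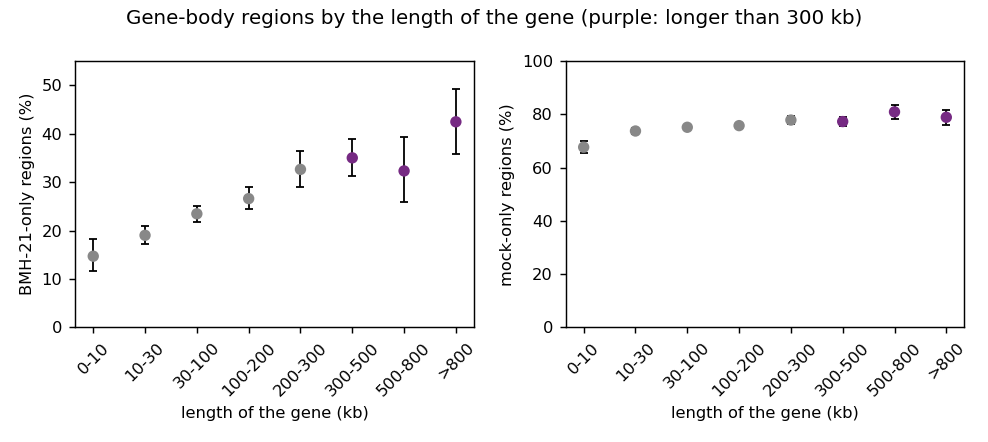
BMH-21-only and mock-only shares in percent (y axis) in 8 bins of gene length in kb (x axis), with exact 95% intervals and genes longer than 300 kb in purple. The BMH-21-only share is 14.7% in genes of 10 kb or less and 42.5% in genes above 800 kb, while the mock-only share spans 67.7 to 80.9%.

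The mock-only share was lower close to an annotated gene end than farther from one. Distance was taken to the nearest end of any annotated gene, which can be a gene inside the long one. Within long genes the mock-only share was 66.0% at 1 to 2.5 kb, 73.9% at 2.5 to 5 kb, and 78.6 to 82.1% in every bin farther from an end. In shorter genes it was 67.0% and 74.4% in the nearest bins. The BMH-21-only share of long-gene regions was 15.2% at 1 to 2.5 kb and 43.8% beyond 100 kb. Strand was known for 405 of the 533 genes. Along these, split into 10 equal segments, the segment nearest the start had a mock-only share of 68.5% (63.0 to 73.6%), or 73.4% without internal starts, and the other segments 71.8 to 83.6%. Without internal starts the lowest value was that of segment 8, 72.3%. The segment nearest the 3′ end held the most regions, 1031 of 6563, against 524 in the segment with the fewest.

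The mock-only share of a gene's body differed by few points with the state of the gene's own ends. A peak within 1 kb of an end was present in 297 and 304 of the 533 long genes in BMH-21 libraries and in 392 and 397 in mock libraries. In the 286 genes whose end peak was present in all 4 libraries, 79.1% (77.5 to 80.6%) of body regions were mock-only. In the 88 genes whose end peak was itself mock-only the share was 79.8% (75.6 to 83.6%). It was 74.9% (71.8 to 77.9%) in the 131 genes with no end peak in any library.

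Internal starts stood apart from the rest of the long-gene bodies. They made up 103 regions in 91 genes, of which 97 belonged to the long gene itself and 6 to another gene within it. The start lay a median of 84.3 kb from the nearer end of the long gene where all 4 libraries held it and 96.1 kb where it was mock-only. The BMH-21 libraries held 63 and 67 of them and the mock libraries 94 and 99, a ratio of 0.674, compared with 0.257 for the 8498 regions elsewhere. Of the 93 held by both mock libraries, 28 were mock-only, or 30.1% (21.0 to 40.5%), against 79.5% (78.2 to 80.7%) elsewhere in long genes. Without the 6 starts within 1 kb of an end of their long gene, the share was 26 of 87, or 29.9%. The BMH-21-only share was 1 of 60 at internal starts and 377 of 988 elsewhere. In shorter genes the mock-only share was 18.1% (16.1 to 20.2%) at internal starts and 77.8% elsewhere.

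Internal starts carried stronger and wider peaks, and the gap was smaller against regions of the same strength. Their median width was 958 bp, against 314 bp elsewhere. Other long-gene regions of the same fold had a mock-only share of 63.3%, which leaves internal starts 33.2 points lower, and those of the same pileup 54.0%, which leaves them 23.9 points lower. The 58 starts held by all 4 libraries had a median of 21 CpGs in their 300 bp windows and the 28 mock-only starts a median of 16. The median over all 32851 windows of the promoter table was 7. Those windows were not chosen for carrying a peak, so the sets are unlike. The GC box GGGCGG, searched on both strands, occurred in 70.7% of the starts held by all 4, in 50.0% of the mock-only starts and in 35.7% of all windows. The element TGACGTCA, a palindrome, occurred in 1 of the 58, in none of the 28, in the Mapk10 window and in 588 of all windows (1.79%). Matches of letters are a description and not evidence of binding.

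**Figure D4:**
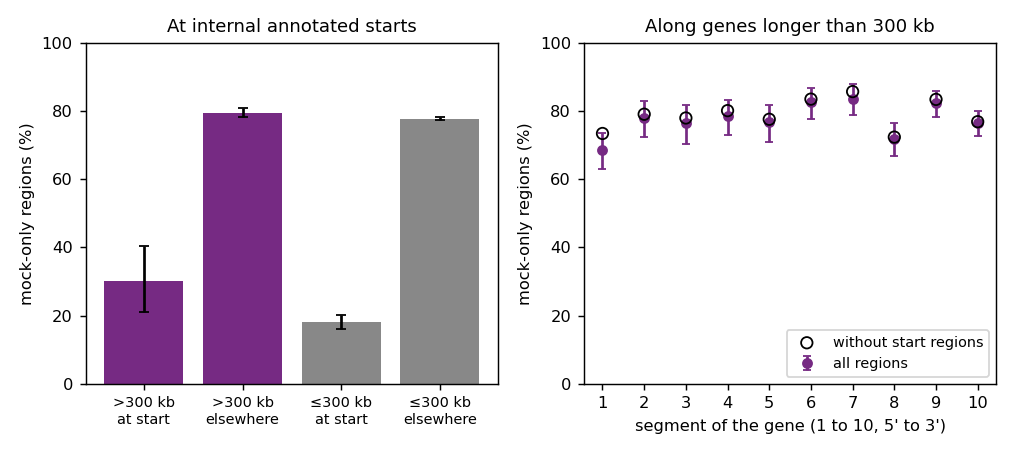
Mock-only share in percent with exact 95% intervals for regions at internal starts and elsewhere, in long and shorter genes, and the same share in 10 equal segments of the gene body from its 5′ to its 3′ end (x axis), with and without start regions. Internal starts lie at 30.1% in long genes, against 79.5% for other long-gene regions, and over all regions the segment nearest the start lies lowest, at 68.5%.

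The starts printed above show the range. Pcca had folds of 15.8 and 17.6 in BMH-21 and 16.6 and 15.2 in mock libraries, and its window holds 21 CpGs. Nkain2, with 43 CpGs, had folds of 11.7 and 16.2 in BMH-21 and 14.2 and 15.0 in mock libraries. Adk, with 33 CpGs, had 13.6 and 13.9 in BMH-21 and 13.1 and 13.8 in mock libraries. These starts were about as prominent over their own background in both groups. The Grik2 start, with 26 CpGs, had no peak in either BMH-21 library and folds of 15.4 and 15.4 in mock. Dpp6, with 6 CpGs, was called only in mock, with folds of 10.3 and 10.1, and Col19a1, with 16 CpGs, with 9.74 and 9.77. The Mapk10 start, with 8 CpGs, had folds of 6.23 and 5.47 in BMH-21 and no mock peak. A fold is the authors' value for a peak within its own list and is not normalised between libraries.

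Away from starts, the strongest mock-only regions lay in Spag16, which encodes a protein of the sperm axoneme (folds 14.8 and 15.3 in mock), Frmd4b, a scaffold protein with a FERM domain (13.5 and 16.6), Ctnna2, the neural alpha-catenin (12.1 and 13.4), and Agbl4 (14.4 and 11.9). The strongest BMH-21-only regions lay in Npas3 (14.9 and 17.4 in BMH-21), Mtus2, a microtubule-associated protein (16.4 and 15.3), Sox5 (15.2 and 14.5), Galntl6 (12.9 and 14.0) and Cdh13 (13.4 and 12.4). Npas3 and Sox5 encode transcription factors. None of these BMH-21-only regions overlapped an annotated start, and the one in Sox5 lay 180.0 kb from the nearest gene end. Each of these regions had a prominent peak in both libraries of 1 group and no called peak in the other group.

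Presence in all 4 libraries did not mean equal prominence. These regions were ranked by fold in the mock lists, which favours regions with a higher fold in mock than in BMH-21. Over all 557 of them the median folds were 5.79 and 6.16 in BMH-21 and 6.21 and 6.40 in mock libraries. The strongest by this ranking, inside Cmss1, had folds of 22.8 and 24.4 in BMH-21 and 23.8 and 27.1 in mock libraries. The region in Rbms3, an RNA-binding protein gene, had 4.58 and 4.89 in BMH-21 and 16.9 and 17.7 in mock libraries, with pileups of 24 and 24 against 97 and 93 fragments. That in Adgrl3, a latrophilin adhesion receptor, had 6.41 and 6.84 in BMH-21 and 16.1 and 17.1 in mock libraries. Both had a far lower peak in the BMH-21 libraries while still being called.

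Gene by gene, 525 of the 533 long genes had at least 1 region. Of the 8 without one, 3 lie under a longer gene to which their regions were assigned. Fewer regions in each BMH-21 than in each mock library were seen in 440 of the 525, or 83.8%, compared with 65.3% of 11309 shorter genes with a body region, which hold fewer regions each. More regions in each BMH-21 library were seen in 4, or 0.762%, compared with 2.16% of shorter genes. These 4 were Ank3, Arhgap24, Rora and Tcf4. Ank3, the ankyrin of the axon initial segment, held 6 and 9 regions in BMH-21 and 2 and 5 in mock libraries. Rora, a nuclear receptor gene, held 8 and 7 in BMH-21 and 5 and 6 in mock libraries. In 183 of the 495 genes with a region in both mock libraries every such region was mock-only, in 16 none was, and 268 had a region held by all 4 libraries.

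Genes with many regions illustrate the scale. Agbl4, which encodes a tubulin deglutamylase, had 6 and 9 regions in BMH-21 and 76 and 88 in mock libraries, and 54 of its 61 double-mock regions were mock-only. Camta1, a calmodulin-binding transcription activator, had 30 and 37 in BMH-21 and 84 and 89 in mock libraries, with 44 of 59 mock-only. Magi2, a synaptic scaffold, had 6 and 6 in BMH-21 and 64 and 69 in mock libraries. Agbl4 is 1267 kb long and Magi2 1485 kb, and each held fewer than 10 regions in either BMH-21 library. Gse1 had 5.10 regions per 100 kb in the BMH-21 mean and 18.7 in the mock mean, the highest density in mock; the highest in BMH-21 was that of Dnah7c, at 6.67. Trappc9, a vesicle tethering subunit, had 7 and 6 regions in BMH-21 and 52 and 60 in mock libraries, and Ulk4, a pseudokinase, 12 and 12 in BMH-21 and 51 and 58 in mock libraries. Spata16, which acts in acrosome formation, had 15 and 16 in BMH-21 and 48 and 52 in mock libraries. The gene model Gm37013 spans 55 clustered protocadherin genes on chromosome 18 and held 10 and 12 regions in BMH-21 and 56 and 58 in mock libraries.

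**Figure D5:**
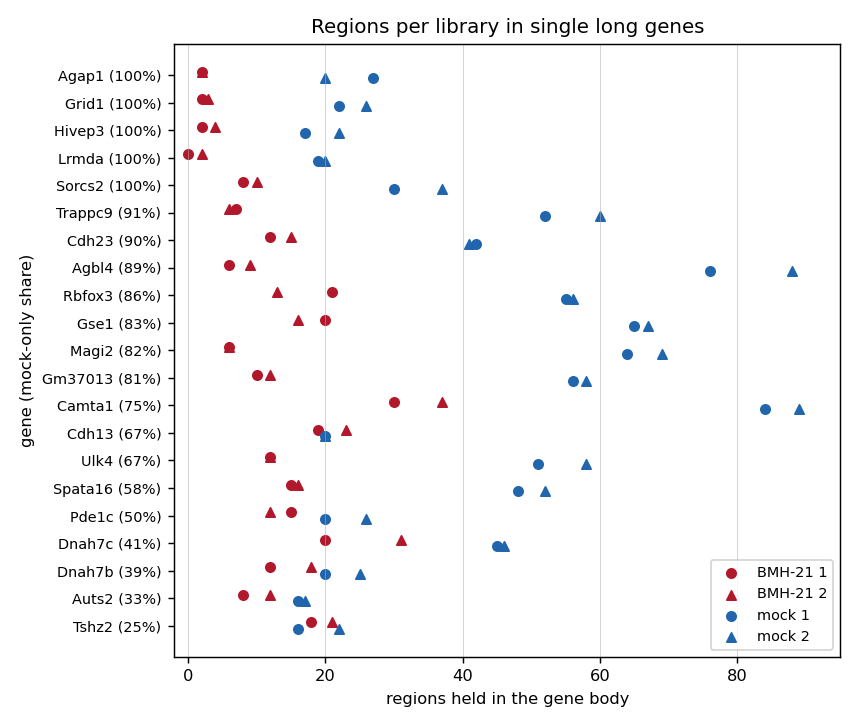
Number of body regions held by each library (x axis) in single long genes (rows), 1 point per library, with the mock-only share beside each name. BMH-21 points lie left of mock points in most genes shown; in Cdh13 and Tshz2 the groups overlap.

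Among the 139 genes with at least 10 double-mock regions, the mock-only share had a median of 78.3% and ran between 25 and 100%. It was 100% in 8 genes. Those with the most regions were Sorcs2, a sorting receptor (21 of 21), Grid1, a delta-type glutamate receptor (17 of 17), Hivep3, a zinc finger transcription factor (14 of 14), Agap1, a GTPase-activating protein (13 of 13), and Lrmda (13 of 13). The lowest shares were in Tshz2, a zinc finger transcription factor (3 of 12), Auts2 (4 of 12), Dnah7b (7 of 18), Dnah7c (17 of 41) and Pde1c, a calmodulin-dependent phosphodiesterase (9 of 18), with Cacna1a (8 of 16) and Anks1b (7 of 14) tied with Pde1c at 50%. Tshz2 held 18 and 21 regions in BMH-21 and 16 and 22 in mock libraries, so its groups overlapped. Dnah7b and Dnah7c are neighbours that encode axonemal dynein heavy chains, and the similar Dnah7a lies elsewhere on chromosome 1. Reads may have been shared between copies, so the values of these genes are uncertain. Without the 3 Dnah7 genes the mock-only share of all long-gene regions was 79.0%, a rise that follows from their low shares.

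BMH-21-only regions occurred in 197 long genes. Camta1 had the most, 13 of its 25 regions held by both BMH-21 libraries, spread over 151135744 to 151694330 of chromosome 4 with folds of 2.83 to 8.66 in the first and 3.06 to 9.11 in the second library. Cdh13, a cadherin anchored by a lipid, had 11 of 15, and it held 19 and 23 regions in BMH-21 and 20 and 20 in mock libraries. Cdh23, a cadherin of hair cell tip links, had 7 of 10, Tshz2 7 of 17 and Rbfox3, a neuronal splicing factor, 6 of 11. In Cdh13 the totals of the groups overlapped, while 6 of its 9 double-mock regions were mock-only. None of the BMH-21-only regions of these 5 genes overlapped an internal start.

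Long genes were also grouped by role, and each group is set beside all long genes (78.3% mock-only, 36.1% BMH-21-only). Of 38 neural adhesion genes, 33 held fewer regions in each BMH-21 library and none held more, beside 83.8% and 0.762% of all long genes with a region, and 172 of 219 double-mock regions were mock-only. Csmd2, a large membrane protein, had 7 and 9 regions in BMH-21 and 42 and 44 in mock libraries, and Sdk1, a retinal adhesion molecule, 11 and 10 in BMH-21 and 28 and 38 in mock libraries. Glutamate receptor genes had the highest share, 48 of 51 (94.1%), with 9 of the 11 members that had a double-mock region at 100%, beside 183 of 495 among all long genes. Gria4, an AMPA receptor subunit, had 1 and 0 regions in BMH-21 and 13 and 10 in mock libraries, and Grid1 2 and 3 in BMH-21 and 22 and 26 in mock libraries. Grid1 and Gria4 had 17 of 17 and 9 of 9 mock-only.

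Cadherins and catenins lay above all long genes in both shares, as glutamate receptor genes did. Of their 134 double-mock regions, 114 (85.1%, 77.9 to 90.6%) were mock-only, an interval that includes the 78.3% of all long genes. Of their 48 regions held by both BMH-21 libraries, 27 (56.2%, 41.2 to 70.5%) were BMH-21-only, of which Cdh13 had 11 and Cdh23 7. The BMH-21-only share was 5 of 10 (50%, 18.7 to 81.3%) in glutamate receptor genes. In neural adhesion genes it was 30 of 68 (44.1%, 32.1 to 56.7%). The intervals of these 2 groups include the 36.1% of all long genes. Cdh4, the retinal cadherin, had 15 and 19 regions in BMH-21 and 49 and 51 in mock libraries. Ion channel genes had 101 of 130 mock-only (77.7%) and synaptic scaffolds 120 of 152 (78.9%). The calcium channel genes Cacna1d and Cacna1a had 15 of 17 and 8 of 16, and the scaffold Shank2 18 of 24. Their mock-only shares lay close to that of all long genes. Their BMH-21-only shares were 27.0% (13.8 to 44.1%) in channels and 27.5% (14.6 to 43.9%) in scaffolds, and both intervals include the 36.1% of all long genes.

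The lower shares were found in genes of transcription and RNA-binding regulators, with 219 of 300 (73.0%, 67.6 to 77.9%), and phosphodiesterases, with 46 of 63 (73.0%, 60.3 to 83.4%). Sperm, cilium and germ cell genes had 149 of 200 (74.5%, 67.9 to 80.4%). That list was drawn broadly and also holds genes not particular to these roles, such as Fto, Hecw2 and Spock1. The intervals of phosphodiesterases and of sperm, cilium and germ cell genes include the 78.3% of all long genes. The regulator list holds Tshz2 (3 of 12) and Auts2 (4 of 12), the lowest shares among genes with at least 10 double-mock regions. It also holds Lrmda (13 of 13), whose place among regulators is uncertain. How far the group's share rests on single genes was not tested. Zfhx3, a homeobox transcription factor, had 13 and 17 regions in BMH-21 and 42 and 47 in mock libraries. The regulator group included 2 of the 4 genes with more regions after BMH-21, Rora and Tcf4. Pde10a had 24 of 27 mock-only, unlike Pde1c. Bbs9, a subunit of the ciliary BBSome, had 6 and 9 regions in BMH-21 and 46 and 53 in mock libraries, while Spata16 had 23 of 40 mock-only. The sperm, cilium and germ cell list included Dnah5, Dnah9 and Dnah11 but not Dnah7a, Dnah7b and Dnah7c, which had 33 of 75 mock-only (44%). Genes at common fragile sites had 116 of 146 (79.5%), with 17 of 27 in Nbea, a vesicle trafficking protein. Cytoskeletal and GTPase signalling genes had 167 of 209 (79.9%), with 18 of 25 in Tiam1, an activator of the GTPase Rac. All 13 fragile site genes held fewer regions in each BMH-21 library, as did 83.8% of all long genes with a region. BMH-21-only regions were 7 of 17 (41.2%) in phosphodiesterases, 48 of 121 (39.7%) in regulators and 11 of 28 (39.3%) in fragile site genes. They were 13 of 44 (29.5%) in cytoskeletal and GTPase signalling genes and 9 of 33 (27.3%) in sperm, cilium and germ cell genes. All these intervals include the 36.1% of all long genes.

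Cell identity was checked at gene ends. Of 11 pachytene marker genes, 10 had an end peak in every library, Ccna1 being the exception. Over all 21887 protein-coding genes, 61.6 and 62.0% had an end peak in BMH-21 and 70.3 and 70.9% in mock libraries. Sertoli markers had one in 5 and 4 of 7 genes in BMH-21 and in 7 and 7 in mock libraries. Leukocyte markers had one in 1 and 1 of 5 in BMH-21 and in 4 and 4 in mock libraries, spermatogonial markers in 5 and 5 of 7 against 6 and 6, and Leydig and peritubular markers in 2 and 2 of 6 against 3 and 3. Their part in the long-gene results was not tested.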

How the data were processed

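Per the labels' protocols, pachytene spermatocytes were tagmented and sequenced as paired reads. MACS2 2.1.0, Bowtie2, fastp, deepTools and bedtools are listed, per the submitters' processing notes, with mm39 and mm10 as builds. A chromosome 1 peak at 195371813, past the mm39 end, shows that positions are mm10. Duplicate removal, transposase shift and calling parameters are not given in the sources used here. The authors called peaks in each library separately, without pooling replicates. The deposited fold is a ratio that the authors' peak caller computed from the summit pileup over the local background, and it is not normalised between libraries. The deposited score was computed by the authors' peak caller as the −log10 q multiplied up and cut to a whole number. The deposited −log10 p-value and −log10 q-value were computed by the authors' peak caller within each library. The smallest deposited −log10 q was 2.01 to 2.09. An absent peak is one below the caller's threshold, and total read depth is unknown.

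Regions, presence and shares were computed as given in the results with Python 3.11.15, pandas 2.3.3, NumPy 2.4.6 and SciPy 1.17.1. The summit pileup and local background were recovered from fold and p by the Poisson relation (largest error 0.0008 in −log10 p). A background within 0.02 of a list's smallest counted as genome-wide. Gene spans came from RefSeq GRCm38.p6, without exons; strand and starts came from its promoter windows (250 bp before to 50 bp after a start). A region in several long genes was counted under the longest. Strength was the mean percentile of the measure in the 2 lists of a group, in 10 classes.

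Library counts were compared with two-sided exact permutation tests over the 3 ways of dividing 4 libraries into pairs; shares of regions have exact 95% intervals and no test, since regions are not replicates. The members, gene lists and comparisons were chosen with earlier results of these data known. Named genes were those with the most regions, the highest and lowest mock-only shares among genes with at least 10 double-mock regions, the leading pair of each list, the strongest regions and the most BMH-21-only regions; genes beside the threshold, those with more regions after BMH-21, and the printed starts were added after values were seen. A gene that this rule named is not reported here. Alternatives covered the peak threshold, list length, summit windows, overlap, gene length, distance from ends, nested genes, the definition of mock-only and BMH-21-only, and each library left out. Those added later were pileup classes, leaving out Dnah7 genes or internal starts, keeping starts near gene ends apart, and applying all settings to the excess of BMH-21-only regions and to internal starts. The steps were tested on simulated data.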

Additional observations from a re-analysis of the deposited data

How the results depend on the processing

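The ratio of long-gene regions between BMH-21 and mock stayed below 1 under every alternative run, at 0.234 to 0.710 (0.245 to 0.285 with 1 library left out). The mock-only share (78.3%) was 80.1% at −log10 q of at least 5, 64.6% with equal list lengths, 80.8% with summit windows, 84.6% where peaks had to cover 50% of a region, 80.0% in genes above 500 kb, 79.8% beyond 10 kb from gene ends, 85.4% with the looser definition and 81.7 to 83.6% with 1 library left out. Its excess over shorter genes (3.55 points) was positive throughout, at 6.92 with equal lists, 4.96 above 500 kb, 2.04 beyond 10 kb, 1.72 without internal starts and 2.99 to 3.62 with 1 library left out. The strength-matched excess (10.0 points) was 13.7 with equal lists, 8.01 with summit windows, 8.56 with 50% cover, 13.1 above 500 kb, 8.32 beyond 2.5 kb, 5.87 beyond 10 kb, 7.09 with the looser definition, 7.50 without internal starts, 3.22 by −log10 q, 1.01 by width, 7.93 to 9.25 with 1 library left out, and -1.39 by pileup, a reversal.

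The BMH-21-only share (36.1%) was 54.3% with equal lists, 43.8% with summit windows, 49.1% with 50% cover, 39.5% beyond 10 kb, 45.5% with the looser definition and 40.2 to 43.9% with 1 library left out. Its excess over shorter genes (12.8 points) was positive throughout, at 9.09 with summit windows, 16.6 with 50% cover, 8.52 with the looser definition and 9.77 to 14.4 with 1 library left out. The gap of internal starts to other long-gene regions (-49.4 points) was -36.5 with summit windows and -52.7 to -48.7 with 1 library left out. The share of body regions in long genes differed by -0.286 points between BMH-21 and mock; it reversed to 0.0310 at −log10 q of at least 5, 0.320 with equal lists, 0.336 beyond 10 kb and 0.368 without internal starts, ran between -0.667 and 0.103 with 1 library left out, and was -0.982 in genes above 200 kb (exact permutation p = 0.33) and -0.549 against bodies of genes of any class. The cause of these shifts was not tested.

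With same-numbered libraries taken as a replicate block, the ratio was 0.264 and the share difference -0.286 points (exact sign-flip p = 0.50 each, the smallest that 2 pairs allow). Whether the numbers pair the libraries could not be told. Deviations from the group means correlated at 0.00125 over 8601 regions. That value cannot exclude pairing, since only regions held by 1 library of each group inform it. With 2 libraries a group, the exact permutation test cannot go below 0.33, and weak peaks near the caller's threshold limit each presence call, since 3909 of 8601 regions rest on a single library.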
